A study of Mus musculus with 8 samples.

Results

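*Utf1*, *Dppa2*, *Dppa4*, *Dppa5a*, *L1td1* and *Fbxo15* are 6 genes known as markers of undifferentiated embryonic stem (ES) cells. They were taken as the non-control probes of the arrays that carry one of these gene names. This gave 9 of the 55681 probes, for 6 of the 36406 names on the array. The arrays compare self-renewing mouse ES cells of the line E14Tg2A.4, which were left untreated, with the same line after 72 h of retinoic acid (RA), at 1 µM all-trans RA in medium from which leukemia inhibitory factor (LIF) was omitted. RA exposure and the loss of LIF, a factor that keeps ES cells self-renewing, therefore cannot be told apart in this comparison. Each condition has 4 biological replicates with 1 single-colour array each. RNA comes from whole cultures, so fewer undifferentiated cells and less transcript per cell cannot be told apart either.

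All 6 genes are expressed at high levels in ES cells and fall silent in most somatic tissues. *Utf1* encodes a chromatin-bound protein that sits at developmental genes and whose own gene is a classic target of Oct4 and Sox2. *Dppa2* and *Dppa4* are neighbouring genes for nuclear proteins with a SAP domain, which form a complex with each other, bind promoters of developmental genes and are needed for the transcription of two-cell stage genes such as *Zscan4*. *Dppa5a* encodes a small RNA-binding protein with a KH domain. *L1td1* arose from the first open reading frame of a LINE element and encodes an RNA-binding protein of the cytoplasm. *Fbxo15* encodes an F-box protein, the substrate-binding part of an SCF ubiquitin ligase, and is another target of Oct4 and Sox2, although ES cells can do without it.

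Each probe is a 60-base oligonucleotide, and the array reports only the part of the transcript under it. The first 30 bases are shown for the probes of *Dppa2*, *Dppa4*, *Dppa5a* and *L1td1*, because they define what was measured, with every probe of *Dppa2* and *Dppa4*, since these have more than 1.
Dppa2 A_66_P136844: accacttagccagtactgatgtatgtttga
Dppa2 A_55_P2059730: tcctgaatgtgttcagagcaacaagaagat
Dppa4 A_66_P101192: ataagaacaagatcttgactaagagcctcg
Dppa4 A_55_P2065549: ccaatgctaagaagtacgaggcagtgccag
Dppa4 A_55_P2158607: atctggcttgtggcttttgtttttgttatc
Dppa5a A_55_P2028171: ctgcgcattctgatgtgaatcccaaggtta
L1td1 A_55_P2101526: gaagagactgcaggctgactgactcaacaa
The probe of *Utf1* (NM_009482) lies at chr7:147130950-147131009 on the mm9 build, which is the build of the scanner files. The probe of *Dppa5a* (NM_025274) lies at chr9:78214866-78214925 and that of *L1td1* (NM_001081202) at chr4:98405084-98405143. The brightest probe of *Dppa2* (NM_028615) lies at chr16:48319381-48319440. That of *Dppa4* (NM_028610) reaches from chr16:48293216 to 48293867, a span of 652 bases for a 60-base probe, so its target is split in the genome. The accessions of all 6 genes were found in RefSeq under the same symbols.

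Between 33629 and 37175 of the 59305 non-control spots per array were well above background, and no spot was saturated. Levels are log2 intensities from which the 75th percentile of the array was subtracted, and a gene with several probes is represented by the one of highest mean signal. A probe was called changed at an adjusted p under 0.05 from limma, with Benjamini-Hochberg adjustment over all 55681 probes, and a fold change above 1.5. On this scale the middle of the distribution of log2 fold changes over all probes lay at -0.28, and at -0.0026 with quantile normalization, and each change is to be read against that shift. The ES cell factors *Pou5f1* (Oct4), *Nanog* and *Sox2* were detected above background on all 8 arrays, so that their detection does not tell the conditions apart, and their levels are given below with the other markers.

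All 6 genes were lower after RA. Each was called, while 21.6% of all probes were called lower and 12.9% higher, or 34.6% either way. Among probes well above background in at least 1 condition 29.6% were called lower. The decreases ranged from 4.54-fold for *Dppa5a* to 32.2-fold for *Fbxo15*, and the median log2 fold change of the 6 genes was -3.47. For every gene all 4 RA-treated arrays lay below all 4 untreated arrays, which holds for 23.8% of all probes. All 9 probes of these genes were well above background on all 8 arrays, so no change is a bound. Transcript of each gene was thus still measured after RA.

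**Figure D1:**
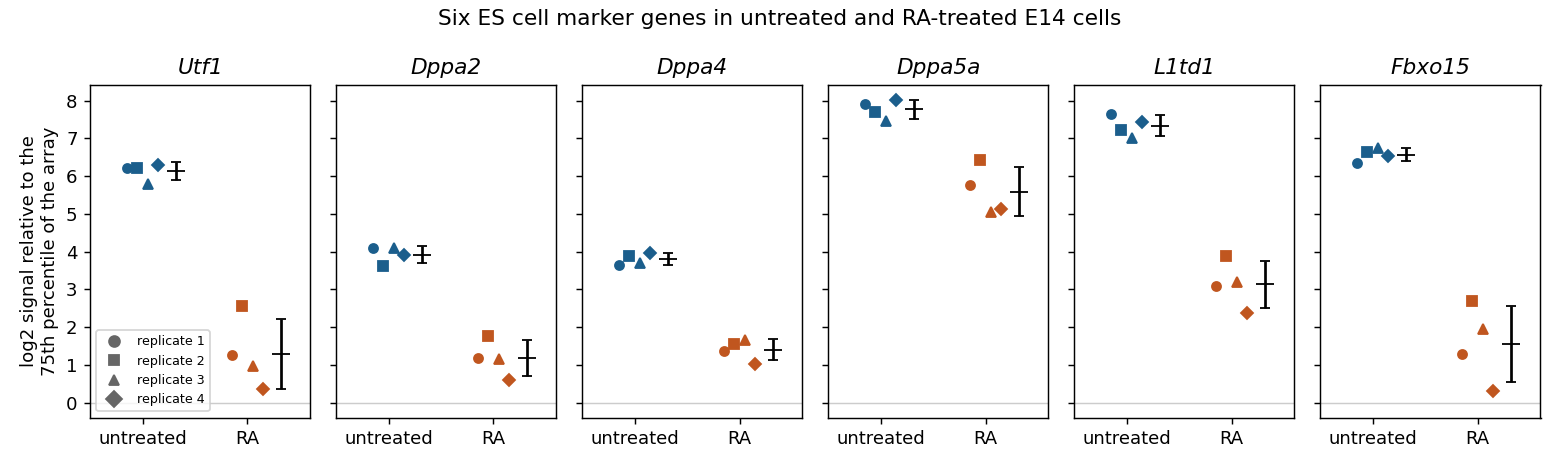
Log2 signal relative to the 75th percentile of the array (y axis) for the 6 genes in untreated and RA-treated cells, with 1 point per array, the marker shape giving the replicate number and the bar giving mean ± SD (n = 4). The conditions do not overlap for any gene, and the RA-treated arrays are more spread than the untreated arrays.

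*Utf1* had log2 levels of 6.23, 6.23, 5.80 and 6.31 in untreated replicates 1 to 4 and of 1.25, 2.56, 0.96 and 0.35 in the RA-treated ones. The untreated arrays were close together, with replicate 3 below the others, and RA-treated replicate 2 was the highest of its condition. The mean fell from 6.14 ± 0.23 to 1.28 ± 0.93 (SD, n = 4), by 4.86 on the log2 scale (standard error, SE, 0.41, limma adjusted p = 3.69e-05). This is 29.1-fold lower (95% interval 15.1 to 55.8).

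*Fbxo15*, on chromosome 18 (NM_015798), had log2 levels of 6.35, 6.65, 6.75 and 6.53 in untreated cells and of 1.28, 2.69, 1.96 and 0.31 after RA. The lowest untreated array was 3.66 above the highest RA-treated one, the widest gap among the 6 genes. The mean fell from 6.57 ± 0.17 to 1.56 ± 1.01 (SD, n = 4), a change of -5.01 (SE 0.44, limma adjusted p = 4.41e-05). Only 232 of all probes, or 0.417%, had a larger decrease on the log2 scale. Of the core of the SCF ligase that an F-box protein joins, *Cul1* rose by 0.78 on the log2 scale, whereas *Skp1a* (-0.23) and *Rbx1* (-0.19) did not pass the test. *Cul1* was not called on either slide alone.

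*L1td1* had log2 levels of 7.66, 7.23, 7.01 and 7.43 in untreated cells and of 3.08, 3.89, 3.21 and 2.38 after RA. RA-treated replicate 2 was again the highest and replicate 4 the lowest. The mean fell from 7.33 ± 0.28 to 3.14 ± 0.62 (SD, n = 4), a decrease of 18.3-fold (-4.19 on the log2 scale, SE 0.31, limma adjusted p = 1.76e-05).

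*Dppa5a* had the smallest decrease of the 6 genes with all 8 arrays. Its log2 levels were 7.91, 7.70, 7.46 and 8.02 in untreated cells and 5.77, 6.42, 5.04 and 5.14 after RA. It kept the largest share of its signal, 22.0%. The mean fell from 7.77 ± 0.25 to 5.59 ± 0.64 (SD, n = 4), a change of -2.18 (SE 0.31, limma adjusted p = 0.000577). The gap between the conditions was 1.04, the narrowest of the 6. Without RA-treated replicate 2 the order turned, with a change of -2.447 for *Dppa4* and -2.458 for *Dppa5a*.

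*Dppa2* had log2 levels of 4.09, 3.61, 4.09 and 3.91 in untreated cells and of 1.18, 1.76, 1.16 and 0.59 after RA. The untreated arrays spanned 1.39-fold and the RA-treated arrays 2.25-fold. The change was -2.75 (SE 0.25, limma adjusted p = 4.99e-05), or 6.73-fold lower. *Dppa4*, its neighbour on chromosome 16, had log2 levels of 3.64, 3.89, 3.69 and 3.97 in untreated cells and of 1.36, 1.54, 1.67 and 1.02 after RA. It was the least spread of the 6 genes, with an SD of 0.16 in untreated and 0.28 in RA-treated cells. The change was -2.40 (SE 0.18, limma adjusted p = 1.88e-05), or 5.28-fold lower.

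Genes with more than 1 probe gave decreases with each. The second probe of *Dppa2*, A_55_P2059730, reaches from chr16:48317579 to 48318787. It had log2 levels of 2.18, 1.91, 1.97 and 1.47 in untreated cells and of -1.75, -0.81, -1.83 and -2.27 after RA, a change of -3.55 (SE 0.31). The first probe thus fell less, by a difference of 0.80 (SE 0.18, exact permutation p = 0.0286, two-sided, the smallest that 4 against 4 arrays can give, not adjusted over the 4 probe comparisons made). With the cultures taken as paired no p below 0.125 is possible. The 3 probes of *Dppa4* fell by 2.40, 2.27 and 2.58 on the log2 scale. The differences between them were within 0.31 and did not pass the exact permutation test (lowest p = 0.143).

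Probes under other names share transcripts or profiles with the members. A probe that the files name as *Pigp*, a gene of glycolipid anchor synthesis, also lists the accession of *Dppa5a*. The signal of this probe fell by 3.11 on the log2 scale, from 8.04 ± 0.37 to 4.94 ± 0.70 (SD, n = 4). It is placed on chromosome 16 and shares a run of only 7 bases with the *Dppa5a* probe, with 23 of 57 aligned bases matching. A probe without a gene name, A_55_P2042297, was, with *Gldc*, nearest in pattern to *Dppa5a* among the genes compared for likeness, and fell by 2.42. It is placed on chromosome 1 and shares a run of 16 bases with the *Dppa5a* probe, and 33 of 51 aligned bases match. Which transcripts the *Pigp* probe and the unnamed probe bind was not tested. A probe named only ENSMUST00000057038, an identifier that a *Dppa2* probe also lists, lies at chr16:48318889-48318943 within the *Dppa2* locus. It had levels of -1.60 ± 0.16 and -4.35 ± 0.43 and fell by 2.74. The value of *Dppa5a* is uncertain to the extent that related copies bind its probe, which was not tested.

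**Figure D2:**
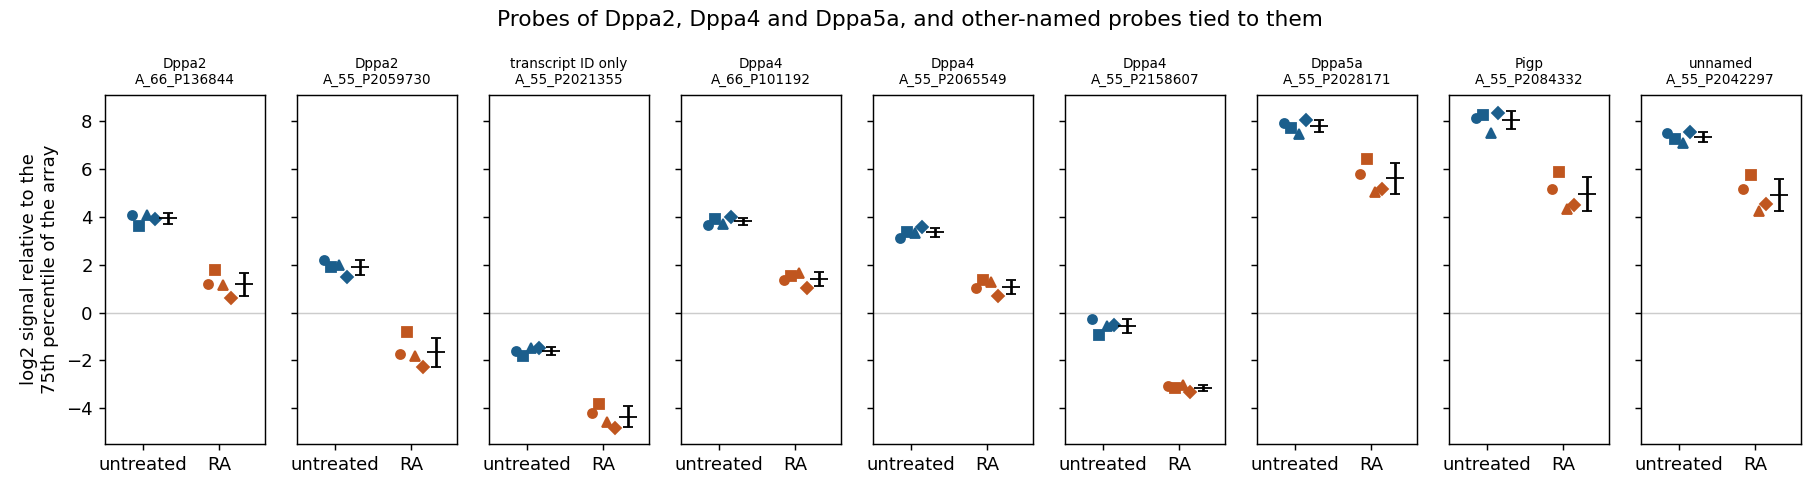
Log2 signal relative to the 75th percentile (y axis) in untreated and RA-treated cells for every probe of *Dppa2*, *Dppa4* and *Dppa5a* and for 3 probes named otherwise that list the same transcripts or follow *Dppa5a*, with 1 point per array, marker shapes for replicates 1 to 4 (circle, square, triangle, diamond) and mean ± SD. All 9 probes shown were lower on every RA-treated array than on any untreated array, and brightness is not comparable between probes.

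The sizes of the 6 decreases were compared with each other. For each of the 15 pairs of genes the difference of their log2 levels was taken on each array and compared between the conditions with a two-sided exact permutation test. Of these, 9 pairs passed at an adjusted p of 0.0476, which rests on the smallest p the design allows, 0.0286. A paired exact test over the 4 replicate numbers, added after seeing the data, cannot give a p below 0.125, so 0 pairs pass when the cultures are taken as paired. The 9 pairs were those that set *Utf1*, *L1td1* or *Fbxo15* against *Dppa2*, *Dppa4* or *Dppa5a*. *Fbxo15* fell more than *Dppa5a* by 2.83 on the log2 scale (SE 0.44). *Utf1* fell more than *Dppa4* by 2.46 (SE 0.41). The smallest such difference was 1.44 (SE 0.18), by which *L1td1* fell more than *Dppa2*, and it was 0.65 (SE 0.21) with the second *Dppa2* probe.

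The 2 trios were read off the pairs that passed, so the split between them is not a separate result. No pair within either trio passed in the main setting, with raw p values of 0.0571 to 0.571 in the exact permutation test. In alternatives some did: *Dppa2* against *Dppa5a* with quantile normalization, with the mean over probes and without RA-treated replicate 3, *Utf1* against *L1td1* without RA-treated replicate 2, and *L1td1* against *Fbxo15* without untreated replicate 1. *Utf1* and *Fbxo15* differed by 0.15 (SE 0.31), and *Dppa4* and *Dppa5a* by 0.22 (SE 0.34), which does not show that they changed alike. Taken by replicate number, 3 pairs within the trios differed in one direction in 4 of 4 replicates. *Dppa2* fell more than *Dppa5a* by 0.57 (SE 0.070), *Fbxo15* more than *L1td1* by 0.82 (SE 0.15) and *Utf1* more than *L1td1* by 0.67 (SE 0.18). With untreated replicate 2, 3 or 4 left out 0 pairs passed, where *Utf1* against *Dppa4* had an exact permutation p of 0.0571 and the 8 pairs still at 0.0286 an adjusted p of 0.0536. The differences themselves kept their sign in each of the 14 alternatives tried for the 9 pairs.

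RA-treated arrays differed among themselves in how much signal of these transcripts remained. Each culture had 1 array, and RA-treated replicate 2 was on slide 2 while replicate 4 was on slide 1. Differences between cultures, arrays and slides therefore cannot be told apart here. RA-treated replicate 2 was above the condition mean for 6 of the 6 genes and the highest RA-treated array for 5, *Dppa4* being highest on replicate 3. RA-treated replicate 4 was below the mean for all 6 and the lowest for 5, the exception being *Dppa5a*, which was lowest on replicate 3. Between replicates 2 and 4 the level differed 5.19-fold for *Fbxo15*, 4.61-fold for *Utf1*, 2.86-fold for *L1td1*, 2.44-fold for *Dppa5a*, 2.25-fold for *Dppa2* and 1.43-fold for *Dppa4*. Over 7611 probes that were called lower and were well above background on all 8 arrays, replicate 2 was the highest RA-treated array for 45.8%, while replicate 4 was the lowest for 32.8% and replicate 1 for 29.7%.

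The SD between arrays was higher after RA for each gene, by 5.91 times for *Fbxo15* and 4.02 times for *Utf1* and by 1.79 times for *Dppa4*. For *Dppa4* this depended on the probe, since the SD of A_55_P2158607 was 0.28 in untreated and 0.12 in RA-treated cells. Among the untreated arrays the highest was replicate 4 for 3 genes, replicate 3 for 2 and replicate 1 for 1. The same RA-treated replicates stood out for the other ES cell markers described next, with replicate 2 highest for 22 of 24 and replicate 4 lowest for 20 of 24. Their median deviation from the condition mean was 1.04 on replicate 2 and -0.91 on replicate 4, on the log2 scale.

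**Figure D3:**
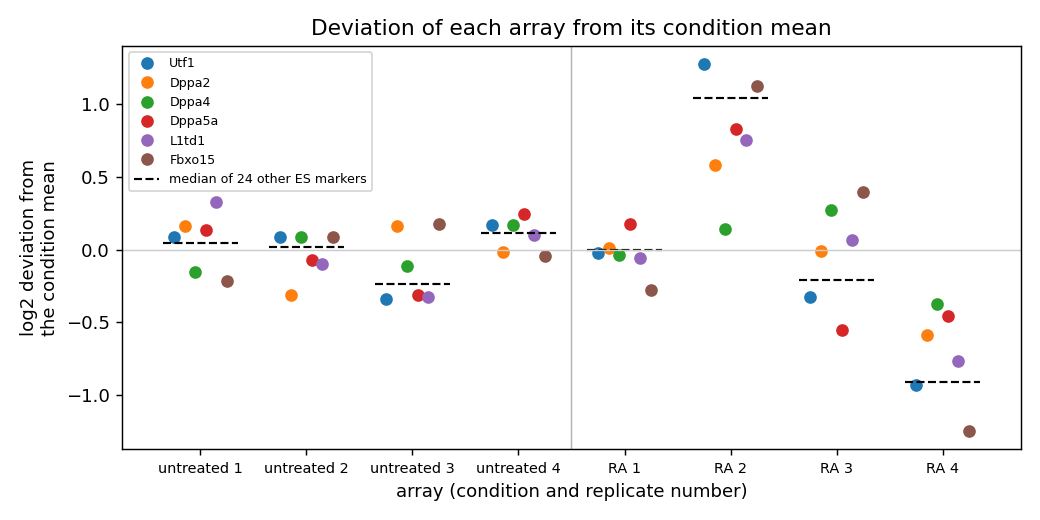
Deviation of the log2 level on each array from the mean of its condition (y axis) for the 6 genes (points) and the median deviation of 24 other ES cell markers (dashed bars), for untreated and RA-treated replicates 1 to 4 (x axis). Deviations stay within 0.34 in untreated cells, whereas RA-treated replicate 2 lies up to 1.28 above its condition mean and replicate 4 up to 1.25 below.

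Markers of other cell types were measured on the same arrays, where 12.9% of all probes were called higher and 21.6% lower. All 5 primitive endoderm markers rose, from *Gata4* (1.31 on the log2 scale) to *Foxa2* (5.03). Of the 4 trophoblast markers 3 rose, the largest increase being that of *Hand1* (4.35), while *Eomes* had a change of 0.42 that did not pass the test, and with normexp background correction 2 rose. Of the 4 fibroblast markers 3 rose, with *Col3a1* at 7.05 and *Thy1* at -0.08. Of the 4 neural markers, *Nes* rose by 2.10, *Tubb3* fell by 2.22 and the others did not pass. Without untreated replicate 3, 2 of these 4 markers were called lower, against 1 with all arrays. Of the 3 mesoderm markers *Mesp1* was at least 1.52-fold lower, while *T* (-0.78) and *Kdr* (-0.05) did not pass. The log2 of the summed primitive endoderm level lay between 0.25 and 1.13 on untreated arrays, and after RA it was 4.42 on replicate 2 and 4.73 to 5.19 on the others. For the trophoblast list it lay between -1.62 and -1.13 on untreated arrays, and after RA at 1.82 on replicates 1 and 2 and 0.19 on replicates 3 and 4. For the fibroblast list the ranges were -0.27 to 0.66 in untreated and 2.55 to 4.01 in RA-treated cells, for the neural list 2.58 to 3.25 and 3.36 to 3.55, and for the mesoderm list 0.64 to 1.19 and 0.64 to 1.07. *Elf5* and *Postn* were well above background on no untreated array. The part of a changed cell make-up in the decreases was not tested.

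A list of 24 other ES cell markers gives the background among genes of the same kind. Of these, 23 fell, against 21.6% of all probes called lower, and their median log2 fold change was -4.59. The exception was *Lin28a*, an RNA-binding regulator of let-7 maturation, with 0.09 (SE 0.22, limma adjusted p = 0.766). The largest decrease was that of *Tcl1*, a coactivator of Akt signalling, with -6.94. *Pou5f1* fell from 5.69 ± 0.30 to 0.15 ± 1.42, *Nanog* from 5.69 ± 0.32 to 1.14 ± 1.16 and *Sox2* from 4.39 ± 0.15 to 1.81 ± 0.33 (SD, n = 4, log2 level). Of the 24 markers, 11 had a larger decrease than *Fbxo15* and 11 a larger one than *Utf1*. This number was 13 for *L1td1*, 18 for *Dppa2* and 20 for both *Dppa4* and *Dppa5a*.

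**Figure D4:**
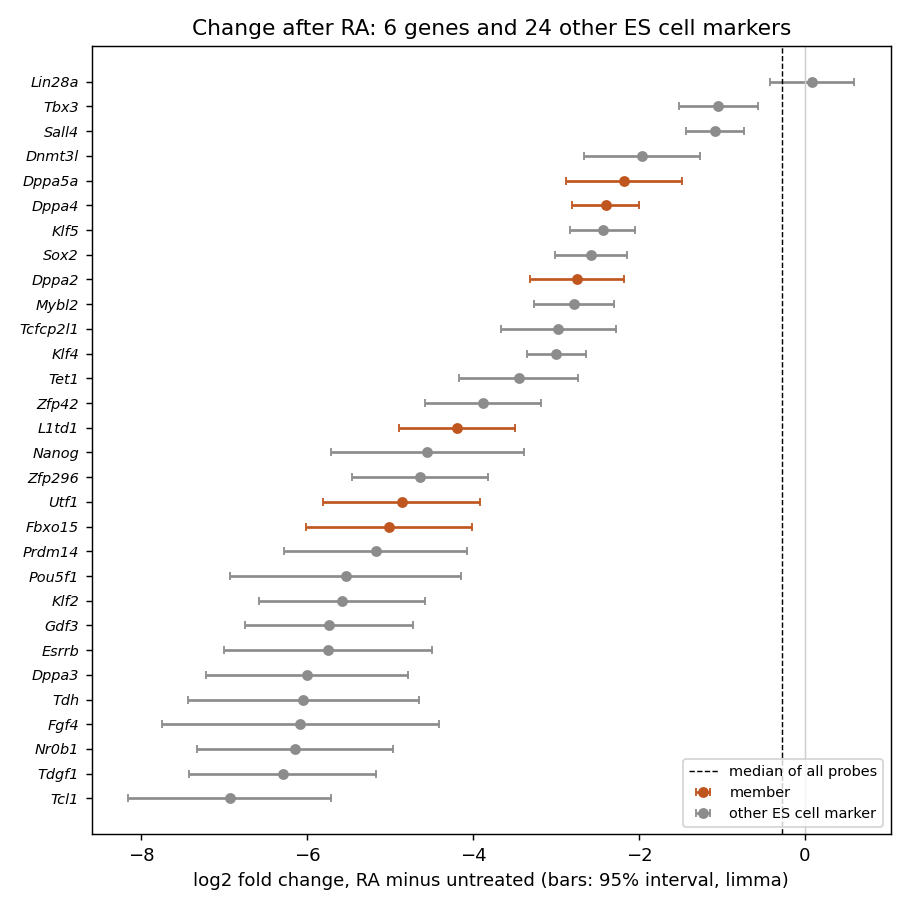
Log2 fold change after RA (x axis, RA minus untreated, bars giving the 95% interval from limma, n = 4 per condition) for the 6 genes (orange) and 24 other ES cell markers (grey), ordered by size, with the median of all probes as a dashed line. *Dppa5a*, *Dppa4* and *Dppa2* sit among the smaller decreases, near *Klf5* and *Sox2*, and *Utf1* and *Fbxo15* lie between *Zfp296* and *Prdm14*.

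Relatives and known partners of the members were followed too. *Dppa5a* belongs to a family of KH-domain genes with *Khdc3*, *Ooep* and the *Khdc1* genes, which are mainly known from oocytes. Of the 6 family genes on the array, 3 fell and none rose, where 21.6% of all probes were called lower. The 3 include *Dppa5a* itself. The others were *Khdc3*, listed as 2410004A20Rik, with -4.81 (SE 0.68) and *Ooep* with -2.55 (SE 0.24). *Khdc1b* and *Khdc1c* were well above background on no array, and *Khdc1a* on 1 RA-treated array.

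Of 14 listed genes of the two-cell stage, a programme in which Dppa2 and Dppa4 act upstream, 12 were on the array and 0 were called by limma, with 1 at an unadjusted p under 0.05, where 34.6% of all probes were called either way. Their changes ran from -1.07 for *Dux* to 1.46 for *Tcstv3*, and the log2 of their summed level was between 3.48 and 7.74 on untreated arrays and between 5.76 and 7.36 after RA. Near-identical copies in these families share probes, so single values are uncertain. The median change of the list was 1.12, and 0.07 on slide 1 alone and 2.19 on slide 2 alone. Untreated replicate 3 was the highest untreated array for 12 of the 12 genes, and without it 2 genes were called higher and the median was 1.98, while without untreated replicate 4 it was 0.47. Of 6 reference genes 0 were called, with 3 at an unadjusted p under 0.05 (limma), and the lowest change was -0.48 for *Sdha*. With quantile normalization 1 reference gene was called higher and the median of the 6 moved from -0.38 to 0.02.

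The genes next to the members in the RefSeq order were looked up after the values of the members had been seen, 2 protein-coding genes to each side. Of the 18 neighbours on the array 6 were called lower and 3 higher, where 21.6% and 12.9% of all probes were, and 2 more had no probe matched. *Dppa4* and *Dppa2* are followed by *Morc1*, a gene for a germline chromatin ATPase, which fell by 5.64 on the log2 scale (SE 0.46). *Ooep* and *Ddx43*, a germline RNA helicase that fell by 1.92, lie on one side of *Dppa5a*, and the genes on the other side, *Gsta2* and *Omt2b*, were well above background on no array. *Kndc1*, beside *Utf1*, fell by 3.38. Next to *L1td1* the gene *Patj*, listed as *Inadl*, which encodes a scaffold protein of cell junctions, rose by 3.34. The others that rose were *Tm2d1*, also near *L1td1* (0.71), and *Timm21*, near *Fbxo15* (1.11).

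The genes most like each member were found by the root mean square difference of log2 profiles over the 8 arrays, each centred on its own mean, among 20397 genes well above background on all arrays. Nearest to *Utf1* were *Tdrd12* at 0.22, a piRNA pathway gene, a transcript named only by its position at 0.23 and *Oas2* at 0.24. Nearest to *Fbxo15* were *Spn* at 0.30, *Zfp296* at 0.31 and another position-named transcript at 0.35. For *L1td1* they were a position-named transcript at 0.15 and, further down, *Abcg1* at 0.19. For *Dppa2* they were 4933406J08Rik at 0.07, which RefSeq now names *Terb2*, a gene of meiotic telomere attachment, then ENSMUST00000057038 at 0.14 and *Foxh1* at 0.17. For *Dppa4* they were *Rad9b* and *Klf5*, both at 0.13, and 4930539E08Rik at 0.14. For *Dppa5a* they were the unnamed probe and *Gldc*, a glycine cleavage enzyme, both at 0.14, and *Socs2* at 0.17.

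The promoter table of RefSeq (GRCm38.p6) held *Utf1* and *L1td1*, both among the members with the larger decreases, and is shown for them. Each window of 300 bases spans the start site. Capitals mark the GC box GGGCGG, searched on both strands with overlapping matches counted.
Utf1 chr7:139943606-139943905, plus strand: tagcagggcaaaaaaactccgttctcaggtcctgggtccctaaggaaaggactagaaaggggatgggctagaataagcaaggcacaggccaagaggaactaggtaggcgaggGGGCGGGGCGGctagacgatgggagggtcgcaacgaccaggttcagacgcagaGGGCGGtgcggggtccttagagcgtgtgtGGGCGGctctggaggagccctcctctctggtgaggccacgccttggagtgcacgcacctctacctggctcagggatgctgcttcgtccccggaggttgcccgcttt
L1td1 chr4:98726504-98726803, plus strand: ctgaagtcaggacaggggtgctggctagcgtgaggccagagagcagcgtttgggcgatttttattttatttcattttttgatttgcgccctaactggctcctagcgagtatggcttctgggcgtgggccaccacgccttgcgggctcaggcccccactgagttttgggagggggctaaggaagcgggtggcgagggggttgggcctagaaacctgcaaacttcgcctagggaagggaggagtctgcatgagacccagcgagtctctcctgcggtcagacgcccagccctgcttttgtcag
The *Utf1* window holds 4 GC boxes, at -138, -133, -85 and -56 from the start site, of which the first pair overlap. A GC box is present in 35.7% of the 32851 promoters of this length, and none was found in the *L1td1* window. Neither window holds the octamer ATGCAAAT, the site of Oct factors, which is present in 1.74% of promoters, nor the TATA box TATAAA (13.6%), the E-box CACGTG (7.15%) or the CCAAT box (37.4%). The windows hold 17 and 14 CpG for *Utf1* and *L1td1*, more than 68.6% and 63.7% of promoters. These matches describe the letters of the windows alone.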

How the data were processed

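E14Tg2A.4 cells were compared on 8 single-colour Agilent arrays, 4 untreated and 4 after 72 h of RA, grouped and numbered by the sample titles. The authors deposited Agilent Feature Extraction output (version 10.7.3.1, mm9), in which each spot has a background-subtracted, detrended intensity that was not normalized between arrays, raw spot and local background intensities, and flags of 0 or 1, recorded here as an other unit. The authors also deposited log2 values of the same spots with the same distribution on every array (median 6.76), whose background treatment is not given in the sources used here.

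In R (version 4.3.3) the log2 processed intensity minus the 75th percentile over the 59305 non-control spots was used. The 3671 control spots and the outlier spots (124 to 145 per array) were left out, and spots of a probe were averaged. No filter on dim probes was applied. Conditions were compared with limma (version 3.58.1) without a block. Single values were compared with exact permutation tests over arrays. The members and lists were chosen with earlier results of these data known. Named were all members, the 3 nearest profiles of each, *Pou5f1*, *Nanog* and *Sox2*, the extremes of each list, and genes needed for small counts. A few items that this rule names are not reported here. Probe pairs, neighbours and promoters were added after values had been seen. The lists, with those found on the array, were ES cell markers (24), KH-domain family (6), two-cell stage (12), SCF core (3), reference (6), neural (4), primitive endoderm (5), mesoderm (3), trophoblast (4) and fibroblast (4). Aliases came from RefSeq. The scanner files list 0 columns of other samples.

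Both slides hold 2 untreated and 2 RA-treated arrays. Deviations from the condition means, over 27504 probes detected throughout, correlated between same-numbered arrays at 0.186, 0.189, 0.104 and 0.152. The highest correlation with another number was 0.142, 0.0369, 0.129 and 0.142, above its own for replicate 3. Since all 4 same-number values were over 0.1, the numbers of the titles were taken to pair the cultures. The arrays numbered 1 shared a slide, as did those numbered 2, whereas those numbered 3 or 4 lay on different slides. For replicates 1 and 2 a pairing of cultures and a shared slide therefore cannot be told apart. For RA against untreated, simulated data with 200 of 55681 probes lowered 2 log2 units were used to test the code, which called 151 of them and 7 others. The number of arrays limits the precision. Alternatives were quantile normalization, normexp background correction (offset 50) with and without it, the authors' log2 values, a filter on dim probes, the replicate and slide blocks, each slide alone, the mean over a gene's probes, outlier spots kept, a 2-fold threshold and each array left out.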

Additional observations from a re-analysis of the deposited data

Results flagged for a closer look

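For the 9 probes of these genes, 18 groups of 4 arrays were examined with Dixon's test at the 95% level, which by chance would pick out 0.9 groups. The single group picked out was *Utf1* in untreated cells, where replicate 3 had a log2 level of 5.80 while the other replicates lay between 6.23 and 6.31.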

How the results depend on the processing

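Each of the 6 genes was called lower in 11 alternative settings, at a fold change above 2, and with each of the 8 arrays left out. Other than with arrays left out, the log2 fold changes lay between -5.21 and -4.51 for *Utf1*, -5.75 and -4.27 for *Fbxo15*, -4.60 and -3.78 for *L1td1*, -3.20 and -2.30 for *Dppa2*, -2.47 and -2.25 for *Dppa4* and -2.23 and -1.88 for *Dppa5a*. The highest adjusted p among these was 0.0345 from limma, for *Dppa5a* on slide 2 alone. With each array left out they lay between -5.29 and -4.55, -5.39 and -4.59, -4.44 and -3.94, -2.94 and -2.55, -2.49 and -2.27, and -2.46 and -1.998 in the same order. With the replicate block, which follows the replicate numbers, the log2 fold change of *Fbxo15* was again -5.01 (limma adjusted p = 0.000252). That of *Dppa5a* was -2.18 (limma adjusted p = 0.00184). The block changed no call among the members or the 24 other ES cell markers. Of those 24, between 21 and 23 were called lower in the alternatives, with 21 on slide 1 alone and 23 at a fold change above 2. The pairs of members with unequal changes (9) numbered between 0 and 10 with each array left out, with 0 without untreated replicate 2, 3 or 4, where 8 pairs reached the smallest p. Without untreated replicate 1 they numbered 9, with *L1td1* against *Fbxo15* in place of *Utf1* against *Dppa4*. With quantile normalization, normexp with and without it, the authors' values, the mean over probes and outlier spots kept they numbered 9 or 10. The paired exact test over the replicate block, added after seeing the data, gave 0, and the slide block, single slides, dim-probe filter and 2-fold threshold were not run for the pairs. Over all probes, 12044 were called lower and 7196 higher on the 75th percentile, and the split moved to 8704 and 8152 with quantile normalization, to 6603 and 6305 with normexp and quantile normalization together, and to 6583 and 6275 with the authors' values. On slide 1 alone 6348 were lower and 4206 higher, and on slide 2 alone 5453 and 3964. Among the two-cell stage genes 1 or 2 were called in 6 alternatives, in either direction, and *Mesp1* was not called lower, or not tested, in 3. Primitive endoderm markers called higher numbered 4 on slide 2 alone, trophoblast markers 2 with normexp and SCF genes 0 on each slide alone.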
